A study of Mus musculus with 399 samples.

Results

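The 10 genes described here are markers of fast-twitch muscle fibres, measured in the soleus, a postural calf muscle that in mice mixes slow and fast fibres. They were chosen by name as Myh1, Myh2, Myh4, Actn3, Pvalb, Mybpc2, Tnnt3, Tnni2, Atp2a1 and Mybph, and are 10 of the 56980 genes in the deposited count table. The series holds 399 RNA-seq libraries of liver, gonadal fat, soleus and pancreas. The 97 soleus libraries came from TH (TALLYHO/Jng), an inbred mouse strain that develops obesity and type 2 diabetes, and from B6 (C57BL/6J), its comparison strain. Males (M) and females (F) of each strain were weaned at 4 weeks onto a high-fat (HF) diet or standard chow, and soleus was taken at 20 weeks of age after 16 weeks of feeding or at 5 weeks after 1 week. Strain, sex, diet and age thus gave 16 groups of 5 to 7 mice, 48 TH and 49 B6 mice in all, with 1 library per mouse by the labels. The strains differ at many loci, so no single allele is compared.

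Muscle fibres are named after the myosin heavy chain they use. Slow type I fibres contain the product of Myh7, and fast fibres contain that of Myh2 (type IIA), Myh1 (type IIX) or Myh4 (type IIB), in order of rising contraction speed and falling reliance on oxidative metabolism. Fast and slow fibres also differ in their troponin subunits, calcium pump and calcium buffer. A fibre can shift between types with nerve activity, load, hormones and metabolic state.

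The promoter windows of the 3 fast myosins, which lie side by side on chromosome 11, and of Mybph, the gene that moved against the others between strains, are given so that the genes compared can be seen. Each window runs 5′ to 3′ on the sense strand from 250 bases before to 50 bases after an annotated RefSeq start. For the 3 myosins this is the gene start. For Mybph it is a start further downstream, as the gene start lies at 134193418, inside the window. Positions are on GRCm38.p6, a build older than the GRCm39 build of the count table. Capitals mark the TATA box TATAAA and the muscle MCAT element CATTCC on either strand.
Myh2 at chr11:67170777-67171076: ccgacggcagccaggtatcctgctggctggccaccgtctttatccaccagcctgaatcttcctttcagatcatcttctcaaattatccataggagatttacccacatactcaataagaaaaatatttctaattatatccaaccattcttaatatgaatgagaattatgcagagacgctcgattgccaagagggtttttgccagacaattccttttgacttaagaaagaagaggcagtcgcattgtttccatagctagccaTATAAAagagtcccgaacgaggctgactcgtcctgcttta
Myh1 at chr11:67199852-67200151: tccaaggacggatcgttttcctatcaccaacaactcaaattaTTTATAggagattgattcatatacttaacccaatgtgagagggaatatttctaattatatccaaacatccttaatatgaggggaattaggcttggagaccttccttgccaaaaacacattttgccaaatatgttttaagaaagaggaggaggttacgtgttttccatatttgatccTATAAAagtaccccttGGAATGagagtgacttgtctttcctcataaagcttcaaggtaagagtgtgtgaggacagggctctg
Myh4 at chr11:67237562-67237861: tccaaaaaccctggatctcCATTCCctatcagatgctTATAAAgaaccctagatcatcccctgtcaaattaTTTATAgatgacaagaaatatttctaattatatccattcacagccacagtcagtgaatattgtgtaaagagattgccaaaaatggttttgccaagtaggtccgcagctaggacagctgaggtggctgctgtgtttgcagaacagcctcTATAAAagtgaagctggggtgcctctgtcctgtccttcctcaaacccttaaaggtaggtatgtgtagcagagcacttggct
Mybph at chr1:134193198-134193497: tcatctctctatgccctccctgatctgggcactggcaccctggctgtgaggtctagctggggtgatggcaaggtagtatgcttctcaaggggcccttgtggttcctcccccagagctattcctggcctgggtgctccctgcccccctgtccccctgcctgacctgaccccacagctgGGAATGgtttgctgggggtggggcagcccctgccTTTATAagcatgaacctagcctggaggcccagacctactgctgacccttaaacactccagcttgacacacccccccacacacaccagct
Counted from the start used to place each window as 0, the TATA box nearest to it began at -32 in Myh1 and at -31 in Myh4. It began at -39 in Mybph and, past the start, at 10 in Myh2. A CATTCC match began at -16 in Myh1, at -231 in Myh4 and at -73 in Mybph. The Myh2 window held no CATTCC. Of 32851 promoter windows of the same length, 13.6% held TATAAA and 14.7% held CATTCC. The E-box CANNTG, found in 72.3% of all windows, occurred 3 times in the Myh4 window and once in that of Mybph, and not in those of Myh1 and Myh2. Such matches are letters in a window and show no binding.

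The genes were identified in the count table by Ensembl identifiers, which for the myosins were ENSMUSG00000033196 (Myh2), ENSMUSG00000056328 (Myh1) and ENSMUSG00000057003 (Myh4) on chromosome 11. Tnnt3 was ENSMUSG00000061723, Tnni2 ENSMUSG00000031097, Atp2a1 ENSMUSG00000030730 and Mybpc2 ENSMUSG00000038670, all on chromosome 7. Pvalb was ENSMUSG00000005716 on chromosome 15, Actn3 ENSMUSG00000006457 on chromosome 19 and Mybph ENSMUSG00000042451 on chromosome 1.

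Sequencing depth ranged from 4169650 to 22050846 counted reads per soleus library (median 11488613), and the 10 genes together took 1.30% to 4.23% of them (median 2.37%). All 10 passed the filter on low counts, and the lowest count of any of them was 8 reads, for Mybph. The muscle markers Acta1, Ckm, Des, Mb and Ttn and the slow-fibre markers were detected in every soleus library. The libraries differed in how strongly transcript level tracked gene GC content, measured as the slope of log2 CPM on GC. The first principal component of all genes held 34.4% of the variance and correlated with this slope at |r| = 0.982 over the 97 libraries. The slope was highest in TH males on the high-fat diet at 20 weeks, at 1.01 to 1.72 log2 units per 10 percentage points of GC (n = 6). Among all TH mice it averaged 0.63 ± 0.49 and among all B6 mice 0.66 ± 0.34 (SD), and among males 0.79 ± 0.42 and among females 0.51 ± 0.37. Its value is therefore set beside the diet and sex results.

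On the per-length scale of the deposited FPKM values, the order of median level over the 97 libraries was Tnnt3 (2091.2 FPKM), Atp2a1 (1339.6 FPKM), Tnni2 (1041 FPKM), Myh2 (673 FPKM), Myh1 (367 FPKM), Pvalb (253 FPKM), Actn3 (93.4 FPKM), Myh4 (55.4 FPKM), Mybpc2 (45.2 FPKM) and Mybph (3.38 FPKM). The slow myosin Myh7 stood at a median of 1259.9 FPKM. Most neighbours in this order were also ordered so within libraries: Myh2 exceeded Myh1, and Pvalb exceeded Actn3, in 97 of 97 libraries. The other neighbours, apart from Actn3 and Myh4, kept their order in 74 to 93 of the 97. Myh1 exceeded Pvalb in 31 of 48 TH and 43 of 49 B6 libraries. Actn3 and Myh4 could not be ordered, since Actn3 had the higher FPKM in only 50 of the 97 libraries. Of the myosins, type IIA was thus the main fast form and type IIB the least abundant one. The coding sequences of Myh1, Myh2 and Myh4 are near-identical over long stretches, so the split of reads among them depends on the authors' counting and is uncertain.

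Strain was compared first, to ask how the fast-fibre transcripts of the diabetes-prone strain differ from those of B6 across both sexes, diets and ages. Of the 10 genes, 9 were lower and 1, Mybph, was higher in TH soleus at an adjusted p under 0.05 (edgeR quasi-likelihood test, averaged over the 8 combinations of sex, diet and age). In this contrast 42.9% of 17520 genes passed the same test, 20.9% lower and 22% higher in TH, so passing it was common, and 9 of 10 lower stand beside 20.9% lower among all genes. The median log2 fold change, TH over B6, of the 10 genes was -0.83, and that of all genes tested was 0.03. In bulk tissue, fewer fast fibres and less fast-fibre RNA per fibre cannot be told apart.

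**Figure D1:**
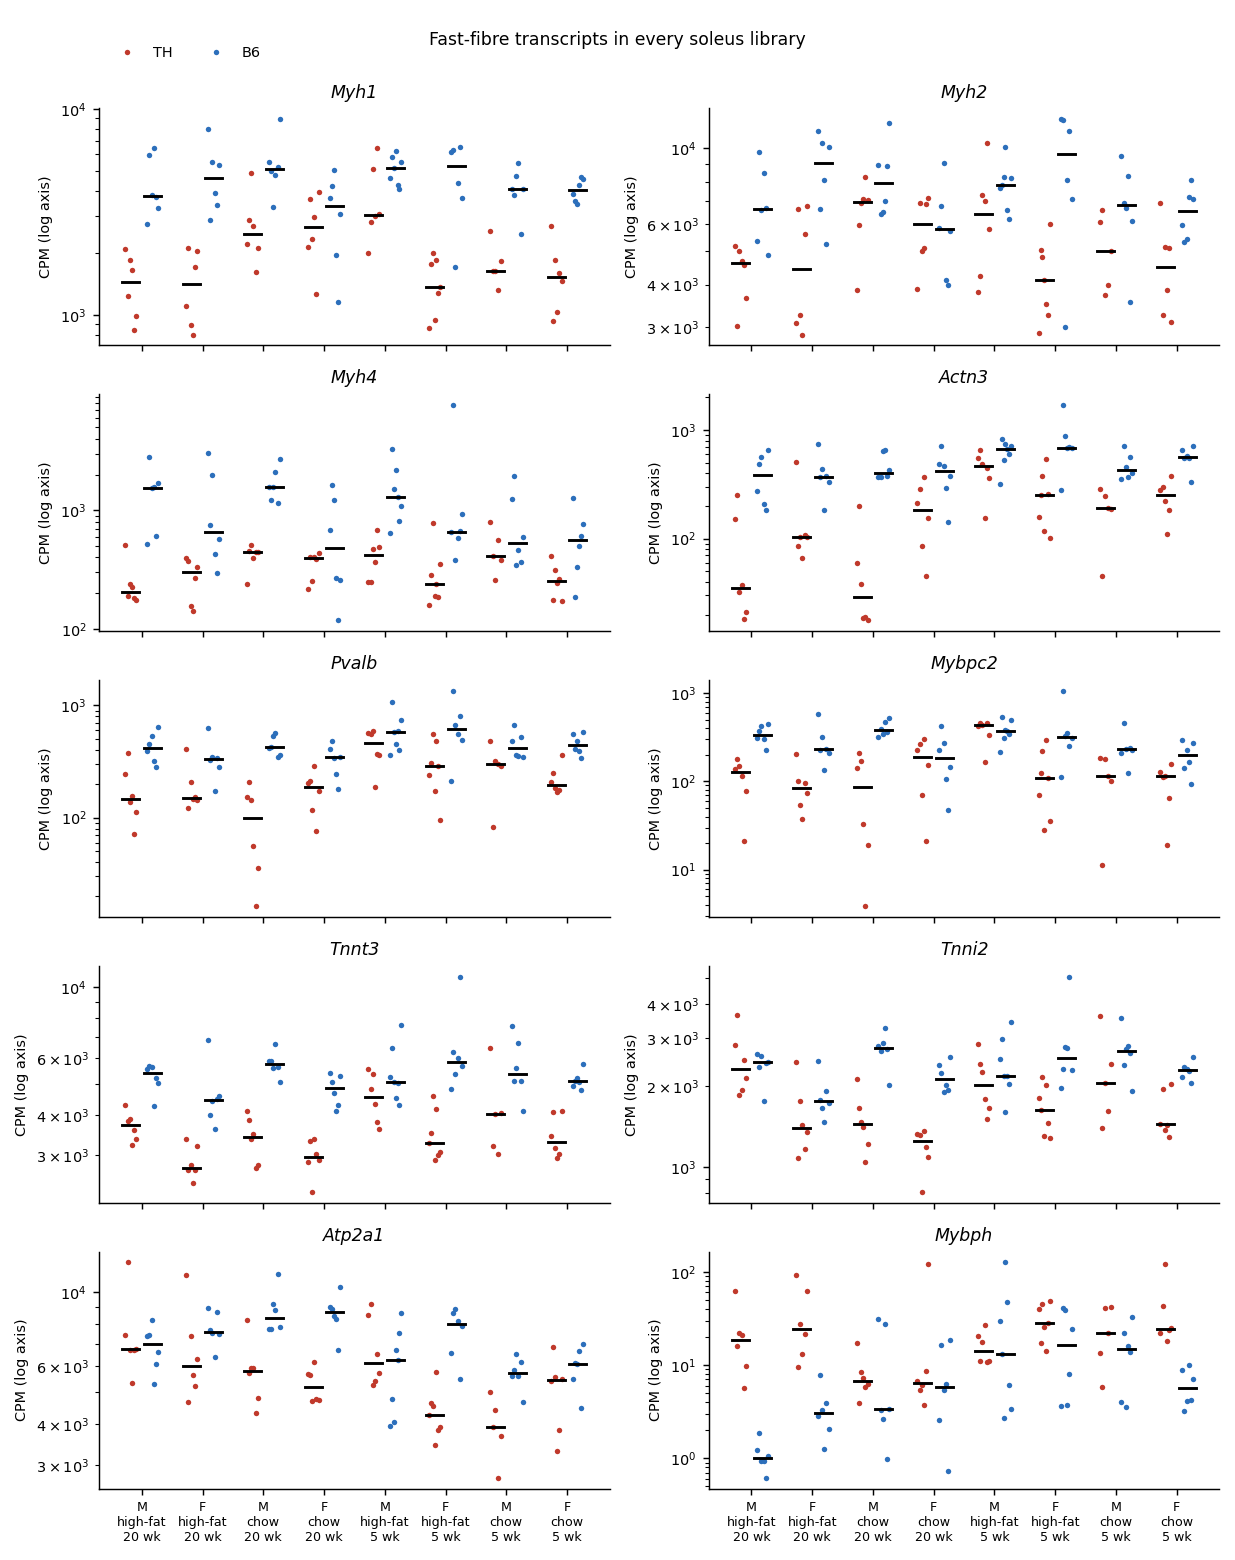
Level of each of the 10 fast-fibre transcripts in every soleus library, as normalised read counts scaled to a common library size (CPM, log axis), by sex (M, F), diet and age, with TH mice in red left of B6 mice in blue and a bar at the median of each group of 5 to 7 mice. In Tnnt3 every TH median lies below its B6 counterpart, and in Mybph every TH median lies above it.

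Among the myosins, Myh1, the type IIX heavy chain, had lowest, median and highest values of 801, 1839.7 and 6468 CPM in the 48 TH mice, against 1155, 4279.7 and 8894 CPM in the 49 B6 mice. CPM are read counts scaled to a common library size, with TMM factors. The TH median was lower in 8 of 8 combinations of sex, diet and age, and in 3 of them the ranges of the strains did not overlap. The log2 fold change, TH over B6, was -1.16 ± 0.11 (adjusted p = 7.48e-17), with ± giving the standard error here and for all fold changes below. Myh4, the type IIB heavy chain, ranged over 141, 324 and 803 CPM in TH mice, against 118, 819.8 and 7736 CPM in B6 mice. It had the largest deficit of the 10 genes, -1.76 ± 0.19 (adjusted p = 1.49e-13), and the ranges of the strains were apart in 2 of 8 combinations. Myh2, the type IIA heavy chain, stood at 2857, 5032 and 10389.8 CPM in TH mice, against 2999, 7115 and 12175 CPM in B6 mice. The difference was smaller, -0.53 ± 0.09 (adjusted p = 1.59e-07), with a lower TH median in 7 of 8 combinations and overlapping ranges in all 8. Ranges apart in at least 3 of 8 combinations occurred in 7.62% of all genes tested, and in at least 2 in 13.8%.

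The group medians show how fully the faster myosins separated the strains. Those of Myh1 ran from 1364 CPM in high-fat females at 5 weeks to 3052 CPM in high-fat males at 5 weeks among the 8 TH groups. Among the 8 B6 groups they ran from 3376 CPM in chow females at 20 weeks to 5246 CPM in high-fat females at 5 weeks. The highest TH median of Myh1 thus lay under the lowest B6 median, and the same held for Myh4. Its TH medians ran from 205 CPM in high-fat males to 445 CPM in chow males, both at 20 weeks, and its B6 medians from 476 CPM in chow females to 1565 CPM in chow males at that age. In chow males at 20 weeks the 6 TH mice had 238.1, 398, 444, 445, 456 and 506 CPM of Myh4, and the 6 B6 mice had 1156, 1219.5, 1557, 1572, 2089.7 and 2685 CPM. In high-fat males at 20 weeks the 6 TH mice had 175, 182, 187, 223, 239.9 and 510.1 CPM, and the 6 B6 mice had 524, 601, 1536, 1571, 1699 and 2841 CPM. In both pairs every TH mouse lay below every B6 mouse, by a narrow margin on the high-fat diet.

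As a share of the summed FPKM of the 4 adult myosin genes, Myh7 made up 62.7% ± 7.82 in TH mice and 44.5% ± 10.4 in B6 mice (SD, n = 48 and 49). Myh2 made up 24.5% ± 4.77 in TH mice and 29.9% ± 4.61 in B6 mice. The faster forms differed more in proportion. Myh1 held 10.9% ± 4.24 in TH mice and 20.1% ± 4.39 in B6 mice. Myh4 held 1.92% ± 0.776 in TH mice and 5.55% ± 4.15 in B6 mice. The smallest gap between strains was in females on chow at 20 weeks, where Myh7 held 61.6% ± 5.16 in TH mice and 59.6% ± 9.63 in B6 mice (SD, n = 6 each), less than the spread among mice of either group. In males of the same age and diet it held 57.5% ± 6.14 in TH and 36.5% ± 7.72 in B6 mice (SD, n = 6 each). These shares are described without a test and were not adjusted for the GC slope. On chow at 20 weeks the slope averaged 0.18 ± 0.24 in TH and 0.72 ± 0.16 in B6 females. In males it averaged 0.53 ± 0.43 in TH and 0.81 ± 0.29 in B6 mice (SD, n = 6 each). Within groups the slope had r of -0.74 with Myh2 and -0.45 with Myh1. Its part in the shares was not tested.

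**Figure D2:**
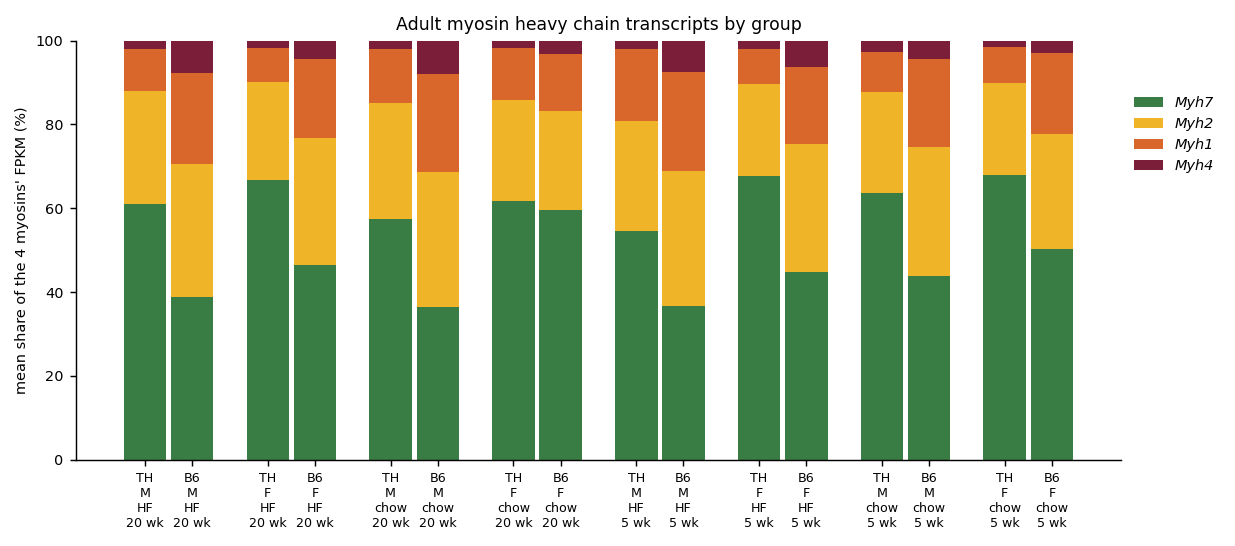
Mean share of each adult myosin heavy chain transcript in the summed FPKM of Myh7, Myh2, Myh1 and Myh4 (percent, stacked bars without error bars), with the TH group left of the B6 group of the same sex, diet and age (5 to 7 mice each). The slow Myh7 takes the larger part in TH in all 8 pairs, least clearly in females on chow at 20 weeks, and the 2 fastest forms together take more in B6.

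Of the thin filament regulators, Tnnt3, fast troponin T, which anchors the troponin complex to tropomyosin, had 2303.2, 3363 and 6450.1 CPM in TH mice, against 3625, 5207 and 10766 CPM in B6 mice (lowest, median and highest). The ranges of the strains did not overlap in 5 of 8 combinations, the most of any of the 10 genes, and the log2 fold change was -0.60 ± 0.05 (adjusted p = 1.42e-17). Tnni2, fast troponin I, the inhibitory subunit, had 808, 1620.4 and 3667 CPM in TH mice, against 1465, 2355.4 and 5067 CPM in B6 mice. Its log2 fold change was -0.47 ± 0.07 (adjusted p = 8.59e-09), with a lower TH median in 8 of 8 combinations. By condition it varied, at -0.09 ± 0.14 (adjusted p = 0.588) on high-fat and -0.88 ± 0.14 (adjusted p = 1.41e-07) on chow at 20 weeks.

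Tnnt3 was apart in all 4 female pairs and in chow males at 20 weeks. On chow at 20 weeks, TH females had 2303.2, 2963 and 3374 CPM and B6 females 4109.6, 4858 and 5402 CPM (lowest, median and highest of 6 each). TH males had 2735, 3427 and 4124 CPM and B6 males 5059.9, 5755 and 6658 CPM. On chow at 5 weeks, TH females had 2942, 3294 and 4108 CPM and B6 females 4769, 5091 and 5744 CPM. Ranges of the strains apart in at least 5 of 8 combinations occurred in 3.66% of all genes tested. Tnni2 came closest between the strains in high-fat males at 20 weeks, where 6 TH mice had 1843, 2305.4 and 3667 CPM and 6 B6 mice 1761, 2443 and 2614 CPM.

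Of the 10, 2 handle calcium. Pvalb encodes parvalbumin, a cytosolic calcium buffer that speeds relaxation of fast fibres. It had 16.3, 206 and 587 CPM in TH mice, against 174, 421 and 1350.4 CPM in B6 mice, with a log2 fold change of -1.05 ± 0.14 (adjusted p = 2.61e-10). The lowest TH mice lay far under the lowest B6 mouse, while the upper TH mice overlapped the B6 range. Atp2a1 encodes SERCA1, the calcium pump of the fast-fibre sarcoplasmic reticulum. Its values were 2754, 5449 and 12301 CPM in TH mice, against 3939, 7354 and 11344 CPM in B6 mice, and it had the smallest called deficit, -0.35 ± 0.06 (adjusted p = 2.00e-06). On the high-fat diet at 20 weeks Atp2a1 was at -0.03 ± 0.12 (adjusted p = 0.83).

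Among the sarcomere accessory proteins, Actn3, the fast-fibre alpha-actinin of the Z disc, had 17.7, 170.2 and 658 CPM in TH mice, against 142, 490.0 and 1701 CPM in B6 mice. Its log2 fold change was -1.54 ± 0.18 (adjusted p = 4.75e-12). Mybpc2, fast myosin-binding protein C, had 3.85, 121 and 461 CPM in TH mice, against 47.9, 299 and 1065 CPM in B6 mice, with -1.16 ± 0.19 (adjusted p = 3.09e-07). Both reached far lower in single TH mice than in any B6 mouse. The TH median of Mybpc2 was lower in only 6 of 8 combinations, and TH males on the high-fat diet at 5 weeks (median 431 CPM, against 374 CPM in B6) and TH females on chow at 20 weeks (190.5 CPM, against 187 CPM) were the exceptions.

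The high-fat TH males at 5 weeks stood above the other TH groups in part of the set. Their median was the highest of the 8 TH groups for 5 genes, Myh1, Actn3, Pvalb, Mybpc2 and Tnnt3. The share of all genes with their highest TH median in this group is not given. Actn3, Pvalb and Mybpc2 also varied together within groups, at r of 0.83 to 0.88, so they are not separate evidence. The Actn3 values of these males were 156, 359, 446, 482, 555 and 658 CPM, against 321, 531, 600.3, 675, 717, 752 and 828 CPM in B6 males of that diet and age. The widest gap in Actn3 was in chow males at 20 weeks, where the TH mice had 17.7, 18.8, 19.1, 38.5, 59.8 and 201.3 CPM and the B6 mice had 368, 372, 381, 430.4, 639.6 and 661 CPM.

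Mybph, myosin-binding protein H, a low-abundance thick filament protein of fast fibres, went the other way. It had 3.77, 17.9 and 119.9 CPM in TH mice, against 0.617, 4.12 and 126 CPM in B6 mice, with a log2 fold change of 1.49 ± 0.26 (adjusted p = 1.30e-06). The TH median was higher in 8 of 8 combinations, but the size of the difference ranged widely. On the high-fat diet at 20 weeks the 6 TH males had 5.74, 9.73, 16.0, 20.8, 22.2 and 61.7 CPM, and the 6 B6 males had 0.617, 0.935, 0.944, 1.06, 1.22 and 1.87 CPM. The male ranges were apart there, and the log2 fold change over both sexes was 3.88 ± 0.59 (adjusted p = 6.21e-08). On the high-fat diet at 5 weeks, where 1 B6 male reached 126 CPM, it was -0.20 ± 0.49 (adjusted p = 0.88) and on chow at 20 weeks 0.57 ± 0.52 (adjusted p = 0.359), neither past the threshold. Without TH chow female 6 at 20 weeks, which had 119.8 CPM where the other 5 of its group had 3.77 to 8.62 CPM, the value on chow at 20 weeks was -0.44 (adjusted p = 0.468) and that over all conditions 1.24 (adjusted p = 1.13e-05). The strain by age interaction of Mybph was 1.47 ± 0.52 (adjusted p = 0.113), so a difference between ages was not established.

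**Figure D3:**
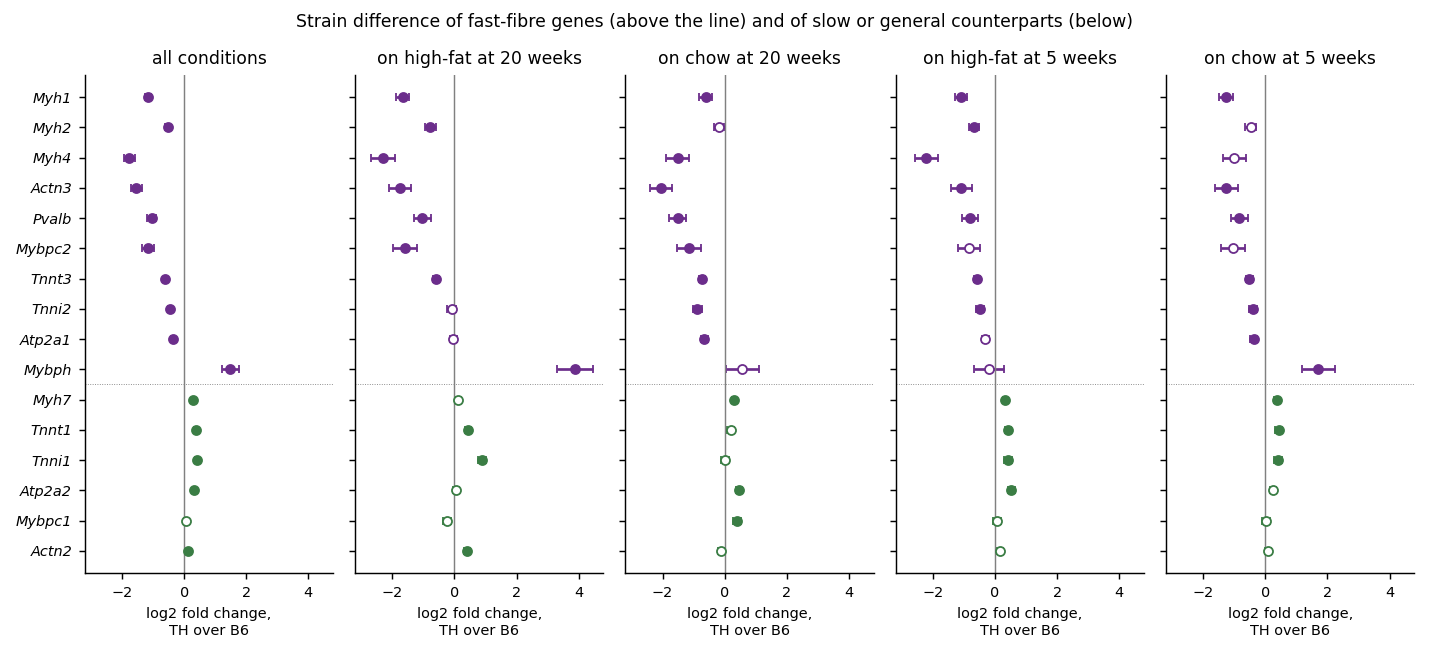
Log2 fold change of TH over B6 (points) with its standard error (bars) over all conditions and, averaged over the sexes, in each diet at each age, for the 10 fast-fibre genes (purple) and 6 slow or general counterparts (green). Filled points passed an adjusted p of 0.05. All purple points other than those of Mybph lie left of 0 in each panel, and Myh7 and Tnnt1 lie right of it.

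By condition, averaged over the sexes, 8 of the 10 genes passed on the high-fat diet at 20 weeks, where 51.4% of all genes did, and 8 passed on chow at 20 weeks, where 48.8% did. On high-fat at 20 weeks the 2 that did not pass were Tnni2 and Atp2a1, both near 0, and on chow they were Myh2 and Mybph. At 5 weeks, 7 passed on the high-fat diet (19.4% of all genes) and 7 on chow (16.6% of all genes). Within single combinations of sex, diet and age, the ranges of the strains were apart for 5 of the 10 genes in chow males at 20 weeks (8.21% of all genes), 4 in high-fat males at 20 weeks (20.6%), 4 in chow females at 5 weeks (6.84%), and 3 each in females at 20 weeks on high-fat (6.47%) and on chow (21.4%). They were apart for 1 gene each in high-fat females (5.72%) and chow males (5.47%) at 5 weeks and for none in high-fat males at that age (4.02%). Over all 8, 9 of the 10 genes were apart in at least 1 (42.9% of all genes). Myh1, Actn3, Pvalb and Tnnt3 were lower in TH in all 4 conditions of diet and age. Myh4 was lower in 3, at -2.31 ± 0.38 on high-fat and -1.52 ± 0.37 on chow at 20 weeks and -2.22 ± 0.37 on high-fat at 5 weeks. Without the B6 high-fat female at 7736 CPM the value on high-fat at 5 weeks was -1.46 (adjusted p = 0.000241) and that over all conditions -1.57. The call of Pvalb at 5 weeks rested on single mice too, with an adjusted p of 0.0716 on high-fat without that female and of 0.0752 on chow without TH chow male 2. Tnni2 passed on chow at 5 weeks but had an adjusted p of 0.114, 0.0644 and 0.0769 without TH chow male 2, 3 or 4 of that age. On chow at 5 weeks Myh4 was -0.997 ± 0.38 (adjusted p = 0.0589), and its adjusted p was 0.0269 without the B6 female, 0.0392 without TH chow male 1 and 0.0479 without TH chow male 5 at 20 weeks. Myh2 passed on the high-fat diet, at -0.78 ± 0.17 at 20 weeks and -0.68 ± 0.17 at 5 weeks. On chow it was -0.18 ± 0.17 (adjusted p = 0.374) at 20 weeks and -0.47 ± 0.18 (adjusted p = 0.051) at 5 weeks, where leaving out 1 of 5 single mice, the B6 high-fat females 2 and 5, TH chow males 1 and 2 at 5 weeks and TH chow male 5 at 20 weeks, gave 0.0247 to 0.0498. Its strain by diet term was -0.40 ± 0.17 (adjusted p = 0.0536). With the GC slope of each library as a covariate, a fit chosen after seeing the data, all 10 genes still passed over all conditions, with log2 fold changes from -1.67 for Myh4 to 1.49 for Mybph. By condition, that fit called 10 on high-fat and 9 on chow at 20 weeks, and 9 on high-fat and 10 on chow at 5 weeks. The number of all genes called changed in that fit too. It is given further below for chow alone, so these counts cannot be set against the shares above. The gains included Tnni2 at -0.36 (adjusted p = 0.00643) and Atp2a1 at -0.28 (adjusted p = 0.0259) on high-fat at 20 weeks, Myh2 on chow at -0.52 (adjusted p = 0.000343) at 20 and -0.49 (adjusted p = 0.00073) at 5 weeks, and Myh4 at -0.99 (adjusted p = 0.0199) on chow at 5 weeks.

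The slow or general counterparts of the same proteins were set beside them. Of 14 slow contractile genes, 11 were higher and 1 was lower in TH, with a median log2 fold change of 0.34. Among all genes 22% were higher and 20.9% lower. Myh7 had median values of 15662 CPM in TH mice and 12422 CPM in B6 mice, 0.28 ± 0.04 (adjusted p = 1.97e-10). Slow troponin T, Tnnt1, was higher at 0.37 ± 0.05 (adjusted p = 1.25e-08), slow troponin I, Tnni1, at 0.43 ± 0.06 (adjusted p = 1.75e-08), and Atp2a2, the slow-fibre calcium pump, at 0.32 ± 0.05 (adjusted p = 1.26e-07). The exception was Casq2, the cardiac and slow-fibre calsequestrin, at -0.26 ± 0.04 (adjusted p = 5.80e-08). Mybpc1, slow myosin-binding protein C, did not pass at 0.06 ± 0.06 (adjusted p = 0.477).

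Within a library the fast to slow ratio on the log2 FPKM scale brings both sides together. For Tnnt3 over Tnnt1 it averaged 0.34 ± 0.28 in TH mice and 1.33 ± 0.30 in B6 mice (SD, n = 48 and 49). For Tnni2 over Tnni1 it was 0.64 ± 0.28 in TH and 1.55 ± 0.35 in B6 mice. Both differences exceeded the SD within either strain. The ratio of Myh1 to Myh7 averaged -2.61 ± 0.69 in TH and -1.15 ± 0.67 in B6 mice. It also pools 2 sexes, diets and ages within each strain.

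Of 9 further fast contractile genes, 6 were lower, 1 was higher and 2 did not pass in TH, with a median log2 fold change of -0.37, where 20.9% of all genes were lower and 22% higher with a median of 0.03. The fast regulatory light chain Mylpf was at -0.67 ± 0.06 (adjusted p = 9.11e-16), the essential light chain Myl1 at -0.59 ± 0.04 (adjusted p = 3.04e-22) and the Z-disc protein Myoz1 at -0.53 ± 0.07 (adjusted p = 2.53e-09). Sypl2, mitsugumin 29 of the triad junction, was the one that was higher, at 0.13 ± 0.06 (adjusted p = 0.0468). The 10 genes tested of glycolysis and of steps linked to it, such as glycogen breakdown, are called glycolysis genes here. Of these, 7 were lower and 1 higher, with smaller sizes (median -0.19). Gpd1, glycerol-3-phosphate dehydrogenase of a linked step, was at -0.47 ± 0.09 and Pkm, pyruvate kinase, at -0.35 ± 0.06. Of 7 transcription regulators of the fast programme, 4 were lower and 2 higher. Sox6, a repressor of slow genes in fast fibres, was at -0.46 ± 0.07 and Tbx15 at -0.37 ± 0.10, whereas Eya1, a transcriptional coactivator, was at 0.42 ± 0.12. Of 7 regulators of the slow programme, 3 were higher and 1 lower, among them Rcan1, a calcineurin target, at 0.67 ± 0.07 and Prox1 at 0.66 ± 0.15.

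Markers of other cells that a dissected soleus can hold were counted between strains too. In this contrast 42.9% of all genes passed, 22% higher and 20.9% lower in TH. Adipocyte markers were higher in TH for 4 of 6, with a summed level of 13.1 to 301 CPM (median 82.5) in TH mice, against 8.21 to 187 CPM (median 60.8) in B6 mice. Tendon markers were higher for 4 of 6 and lower for 1 (summed medians of 299.6 CPM in TH and 199.95 CPM in B6 mice). Schwann cell markers were higher for 2 of 6, and their sum reached 4092 CPM in 1 TH and 2568 CPM in 1 B6 mouse, against medians of 212 CPM in TH and 215.9 CPM in B6 mice. Red blood cell markers were lower for 5 of 5 (summed medians of 393 CPM in TH and 769.8 CPM in B6 mice) and endothelial markers for 4 of 5 (672 CPM in TH and 894 CPM in B6 mice). Of 5 macrophage markers 1 was higher, and of 5 general muscle markers 2 were, with summed medians of 29545 CPM in TH and 26106 CPM in B6 mice. Of 7 genes of immature or denervated fibres, 4 were higher in TH, namely Chrng, the fetal acetylcholine receptor subunit (1.67 ± 0.15), the myogenic factor Myog (1.28 ± 0.10), Chrna1 (0.62 ± 0.05) and Ncam1 (0.20 ± 0.06). The part of these cells in the fast-fibre differences was not tested.

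Age was compared next. Over all groups, 5 of the 10 genes were lower and 1 was higher at 20 than at 5 weeks, where 59.3% of all genes tested differed, 34.1% lower and 25.3% higher. Actn3 had medians of 234 CPM at 20 weeks and 399 CPM at 5 weeks, lower in 8 of 8 combinations, and a log2 fold change of -0.90 ± 0.18 (adjusted p = 7.13e-06). Pvalb was at -0.71 ± 0.14 (adjusted p = 4.32e-06), with medians of 264 CPM at 20 weeks and 396 CPM at 5 weeks. Tnnt3 (-0.22 ± 0.05), Tnni2 (-0.20 ± 0.07) and Mybph (-1.13 ± 0.26) were also lower at 20 weeks. Atp2a1, the calcium pump, was the one that was higher, at 0.35 ± 0.06 (adjusted p = 1.14e-06). None of the 3 fast myosins passed, with values of -0.02 ± 0.10 for Myh1, 0.03 ± 0.09 for Myh2 and -0.02 ± 0.18 for Myh4.

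Within TH, the age difference reached 4 genes on chow (38.4% of all genes) and 6 on the high-fat diet (52.8%). Myh1 took opposite directions by diet. On the high-fat diet its TH medians were 1436 CPM at 20 weeks and 1984 CPM at 5 weeks, -0.69 ± 0.21 (adjusted p = 0.00376). On chow they were 2510.1 CPM at 20 weeks and 1635 CPM at 5 weeks, 0.69 ± 0.21 (adjusted p = 0.00782). Over both strains the diet by age term of Myh1 was -0.76 ± 0.21 (adjusted p = 0.0256), 1 of 10 genes where 3.46% of all genes passed. It remained with the GC slope as a covariate at -0.63 (adjusted p = 0.026), and without a filter on low counts its adjusted p was 0.0672. Actn3 and Pvalb were lower at 20 weeks on both diets in TH, though Actn3 on chow had an adjusted p of 0.0504 without TH chow male 5 at 20 weeks. Without TH chow female 6 at that age, Mybph in TH on chow was at -2.19 (adjusted p = 0.000389), against -1.18 ± 0.52 (adjusted p = 0.063) with it. In B6, 1 gene differed with age on chow (41.2% of all genes), namely Atp2a1 at 0.58 ± 0.13 (adjusted p = 9.60e-05). On the high-fat diet 3 did (24.1% of all genes), namely Mybph at -3.70 ± 0.58, Pvalb at -0.71 ± 0.27 and Tnnt3 at -0.27 ± 0.10. Without the B6 high-fat female at 7736 CPM of Myh4, Pvalb had an adjusted p of 0.128 there. Without female 5 of that group it was 0.0603 for Pvalb and 0.242 for Tnnt3, which also had 0.068 without TH chow male 5 at 20 weeks and 0.0524 without TH chow male 3 or 5 at 5 weeks. No strain by age term of the 10 passed in edgeR or DESeq2, where 3.23% of all genes did in edgeR, and the unadjusted edgeR p was under 0.05 for 2. The share of all genes at that unadjusted cut is not given. Beside these results, Schwann cell markers were lower at 20 weeks for 6 of 6, tendon markers for 5 of 6 and endothelial markers for 5 of 5. Adipocyte markers were higher for 6 of 6 and red blood cell markers for 5 of 5. Over both strains, 34.1% of all genes were lower and 25.3% higher at 20 weeks. The part of these cells in the age differences was not tested.

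Between the sexes, 3 of the 10 genes were higher in males over all groups, where 44% of all genes differed, 22.8% higher and 21.2% lower. Tnni2 had medians of 2373 CPM in males and 1903 CPM in females, 0.31 ± 0.07 (adjusted p = 0.000148). Tnnt3 was at 0.19 ± 0.05 (adjusted p = 0.00222) and Myh1 at 0.29 ± 0.10 (adjusted p = 0.0207). Myh4 did not pass at 0.40 ± 0.18 (adjusted p = 0.0637), but was at 0.59 (adjusted p = 0.0027) without the B6 high-fat female at 7736 CPM and had an adjusted p of 0.0479 without TH chow male 5 at 20 weeks. Slow contractile genes went the other way, with 10 of 14 lower in males, among them Myh7 at -0.34 ± 0.04 (adjusted p = 3.34e-12). With the GC slope as a covariate, for which the share of all genes called is not given here, 6 of the 10 passed in place of 3. Of those 3, Myh1 was at 0.48 (adjusted p = 0.000103) and Tnni2 at 0.16 (adjusted p = 0.0271), while Tnnt3 no longer passed at 0.13 (adjusted p = 0.0502). Myh4 then stood at 0.77 (adjusted p = 0.000713), Myh2 at 0.35 (adjusted p = 8.95e-06) Actn3 at -0.64 (adjusted p = 0.00346) and Atp2a1 at -0.14 (adjusted p = 0.0383), the last 2 lower in males.

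Actn3 set TH males apart at 20 weeks. On chow the 6 TH males had 17.7, 18.8, 19.1, 38.5, 59.8 and 201.3 CPM, and the 6 TH females had 44.9, 85.6, 154, 214.2, 288 and 372 CPM. On the high-fat diet the TH males had 18.2, 21.3, 32.6, 37.5, 153 and 254.2 CPM, and the TH females had 65.7, 85.8, 103.9, 104.4, 109 and 511 CPM. The male values were low in 4 of 6 mice of each diet and overlapped those of females in the others. The log2 fold change, male over female, was -1.32 ± 0.36 (adjusted p = 0.00478) in TH at 20 weeks, where 36.4% of all genes passed, and 0.08 ± 0.35 (adjusted p = 0.918) in B6 at that age. It was -1.80 (adjusted p = 0.000162) in TH with the GC slope as a covariate. The strain by sex term, taken over both ages, passed for none of the 10 in edgeR or DESeq2 (0.719% of all genes in edgeR), with 4 at an unadjusted p under 0.05. Counts at an unadjusted p use a looser cut than the shares beside them, and the share of all genes under that cut is not given. The other calls in TH at 20 weeks were Tnni2 (0.51 ± 0.14) and Tnnt3 (0.28 ± 0.11). Neither passed with the GC slope as a covariate, while Myh2 at 0.46 (adjusted p = 0.00997) and Pvalb at -0.83 (adjusted p = 0.0369) then did. Tnnt3 had an adjusted p of 0.0531 without TH chow male 4 at 5 weeks. At 5 weeks, where 4.71% of all genes passed, 1 of the 10 did: Myh1 was higher in TH males at 0.78 ± 0.21 (adjusted p = 0.0179). Without TH chow male 1 at 5 weeks it was 0.70 (adjusted p = 0.067). None of the 10 passed between sexes in B6 at 20 weeks (5.58% of all genes) or at 5 weeks (5.03%) in edgeR or DESeq2, with 3 and 1 at an unadjusted edgeR p under 0.05.

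Averaged over strains, sexes and ages, no fast-fibre gene passed the test for diet, where 6.95% of all genes did. The count was 0 in DESeq2 too, and 3 of the 10 had an unadjusted edgeR p under 0.05. Here and below, shares of all genes refer to the adjusted p, and those at an unadjusted p under 0.05 are not given. The nearest to passing was Pvalb at 0.38 ± 0.14 (adjusted p = 0.0672), with medians of 362 CPM on high-fat and 338 CPM on chow. Without TH chow male 1 at 5 weeks its adjusted p was 0.0404. None passed in TH at 5 weeks (0.702% of all genes), with 3 at an unadjusted p under 0.05 and 0 in DESeq2. None passed in B6 at 20 weeks (0.114%), with 2 at an unadjusted p under 0.05 and 1, Mybph, in DESeq2. None passed in B6 at 5 weeks (0.982%), with 3 at an unadjusted p under 0.05 and 1, Myh4, in DESeq2. In edgeR, Mybph was at -2.28 ± 0.58 (adjusted p = 0.0842) in B6 at 20 weeks, and Myh4 was at 1.24 ± 0.37 (adjusted p = 0.0766) in B6 at 5 weeks. Both depended on single mice. Without B6 high-fat female 2 at 5 weeks, the one at 7736 CPM, Myh4 was at 0.49 (adjusted p = 0.646), and without female 5 of that group at 1.33 (adjusted p = 0.0468). Mybph had an adjusted p of 0.0433 without TH chow female 6 at 20 weeks and of 0.0754 to 0.0856 without each of the other 8 mice left out.

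In TH at 20 weeks, 4 of the 10 passed, where 67.7% of all genes did. The diet split the set. Myh1 was lower on high-fat, with medians of 1436 CPM on high-fat and 2510.1 CPM on chow, -0.92 ± 0.21 (adjusted p = 0.000164). Myh2 was lower at -0.45 ± 0.17 (adjusted p = 0.018). Tnni2 was higher at 0.56 ± 0.14 (adjusted p = 0.000329) and Atp2a1 at 0.36 ± 0.12 (adjusted p = 0.00881). The GC slope moved with this contrast. It averaged 1.30 ± 0.26 in high-fat and 0.53 ± 0.43 in chow males of the strain at 20 weeks, and 0.64 ± 0.49 in high-fat and 0.18 ± 0.24 in chow females (SD, n = 6 each). With the slope as a covariate, the number of all genes called fell to 3368 in place of 11862. Of the 10, Myh1 alone still passed, at -0.56 (adjusted p = 0.0375), while Tnni2 stood at 0.22 (adjusted p = 0.19), Atp2a1 at 0.05 (adjusted p = 0.808) and Myh2, with its sign turned, at 0.05 (adjusted p = 0.82). Mybph, at 1.03 ± 0.51 (adjusted p = 0.0649) with all mice, was at 2.05 (adjusted p = 0.000462) without TH chow female 6.

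The diet response of TH was then set against that of B6. The strain by diet term passed for Myh4 at -1.003 ± 0.36 (adjusted p = 0.0295), Tnni2 at 0.34 ± 0.14 (adjusted p = 0.0398) and Atp2a1 at 0.34 ± 0.12 (adjusted p = 0.0291), 3 of 10 genes where 36.9% of all genes passed. At 20 weeks Myh4 had medians of 232 CPM on high-fat and 403 CPM on chow in TH, and of 1140.3 CPM on high-fat and 1220.2 CPM on chow in B6. At 5 weeks it had 282 CPM on high-fat and 313 CPM on chow in TH, and 926 CPM on high-fat and 548 CPM on chow in B6. The wider gaps between diets were thus in B6 at 5 weeks and in TH at 20 weeks. One mouse carried much of the Myh4 term: without the B6 high-fat female at 7736 CPM at 5 weeks it was -0.63 (adjusted p = 0.115), and Tnni2 then had an adjusted p of 0.0555, which left Atp2a1 at 0.35 (adjusted p = 0.0337). Without TH chow male 5 at 20 weeks, Tnni2 had an adjusted p of 0.054, and without TH chow male 2 or 4 at 5 weeks of 0.0681 or 0.053. Myh2 passed, with an adjusted p of 0.0464, without TH chow male 3 at 5 weeks, and Mybph, at 1.21 with 0.0449, without TH chow female 6 at 20 weeks. With the GC slope as a covariate none of the 3 passed, and 82 of all genes did in place of 6473. None of the 10 passed for diet by sex (0.00571% of all genes) or sex by age (0.223%) in edgeR or DESeq2, and none had an unadjusted p under 0.05 there.

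Mice of the same group differed far more in some of these transcripts than in others. The within-group SD of log2 CPM was 1.28 for Mybph, 1.08 for Mybpc2, 0.89 for Myh4, 0.88 for Actn3 and 0.71 for Pvalb. Among the 200 genes nearest to each in mean level, these stood at percentiles 98.5 to 100. Myh1 (0.53) and Myh2 (0.44) came next, at percentiles 90.5 and 87.5. Tnni2 (0.33), Atp2a1 (0.30) and Tnnt3 (0.25) stood at percentiles 72.5, 58.5 and 33.5, and the slow Myh7 (0.17) at percentile 3. The widest range was that of Mybpc2 in TH males on chow at 20 weeks, whose 6 mice had 3.85, 19.2, 32.8, 142, 169.7 and 212 CPM. One of these, replicate 5, was also the lowest of all 97 libraries in Pvalb, at 16.3 CPM.

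The strains differed in which genes were spread. The SD of log2 CPM of Mybpc2 was 1.37 in TH and 0.70 in B6 mice. That of Actn3 was 1.09 in TH and 0.61 in B6 mice. Pvalb followed, with 0.85 in TH and 0.53 in B6 mice. The order was the reverse for Myh4, at 0.58 in TH and 1.11 in B6, and for Mybph, at 1.10 in TH and 1.44 in B6. The B6 spread of Myh4 included 1 female on the high-fat diet at 5 weeks at 7736 CPM, where the other 5 mice of that group had 378 to 926 CPM. These differences in spread were not tested.

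**Figure D4:**
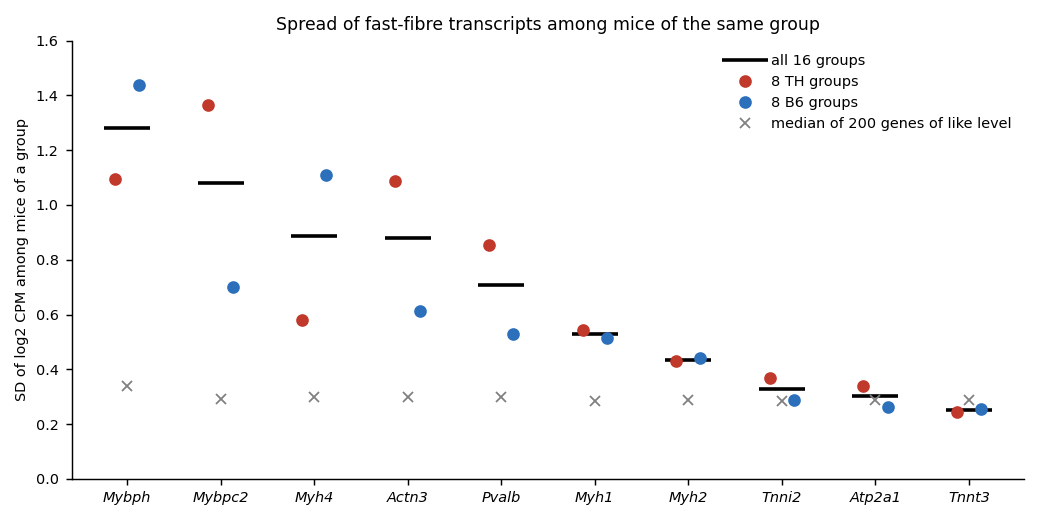
Standard deviation of log2 CPM among mice of the same group for each of the 10 genes, pooled over 16 groups (black bars), over the 8 TH groups (red) and over the 8 B6 groups (blue), with the median of the 200 genes of nearest mean level (grey crosses). The 5 genes at the left lie far above the crosses, and the 3 at the right lie near them.

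Deviations from the group means were correlated between genes over the 97 libraries, as a description, since all values of a mouse share 1 library. Actn3, Pvalb and Mybpc2 moved as one set, with r of 0.88 for Actn3 with Pvalb, 0.88 for Pvalb with Mybpc2 and 0.83 for Actn3 with Mybpc2. The fast myosins formed another, with r of 0.75 for Myh1 with Myh2, 0.60 for Myh2 with Myh4 and 0.59 for Myh1 with Myh4, a value that shared reads among near-identical genes can raise. Tnnt3 and Tnni2 had r = 0.86, and Tnni2 with the fast light chain Mylpf 0.94. Tnnt3 and Tnni2 also moved with slow troponin T, at r = 0.74 and 0.78 with Tnnt1, so their spread within groups was shared with a slow gene. Mybph had no r above 0.26 with any other of the 10.

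The GC slope of a library entered these values. Within groups it had r = -0.74 with Myh2 and -0.45 with Myh1, but 0.61 with Tnni2 and 0.59 with Atp2a1. After the slope was removed, Actn3, Pvalb and Mybpc2 kept r of 0.81 to 0.87 with each other. Their r with Myh1 then ranged from 0.58 to 0.73, in place of 0.27 to 0.47. With Myh2 they ranged from 0.16 to 0.24, in place of -0.25 to -0.09.

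**Figure D5:**
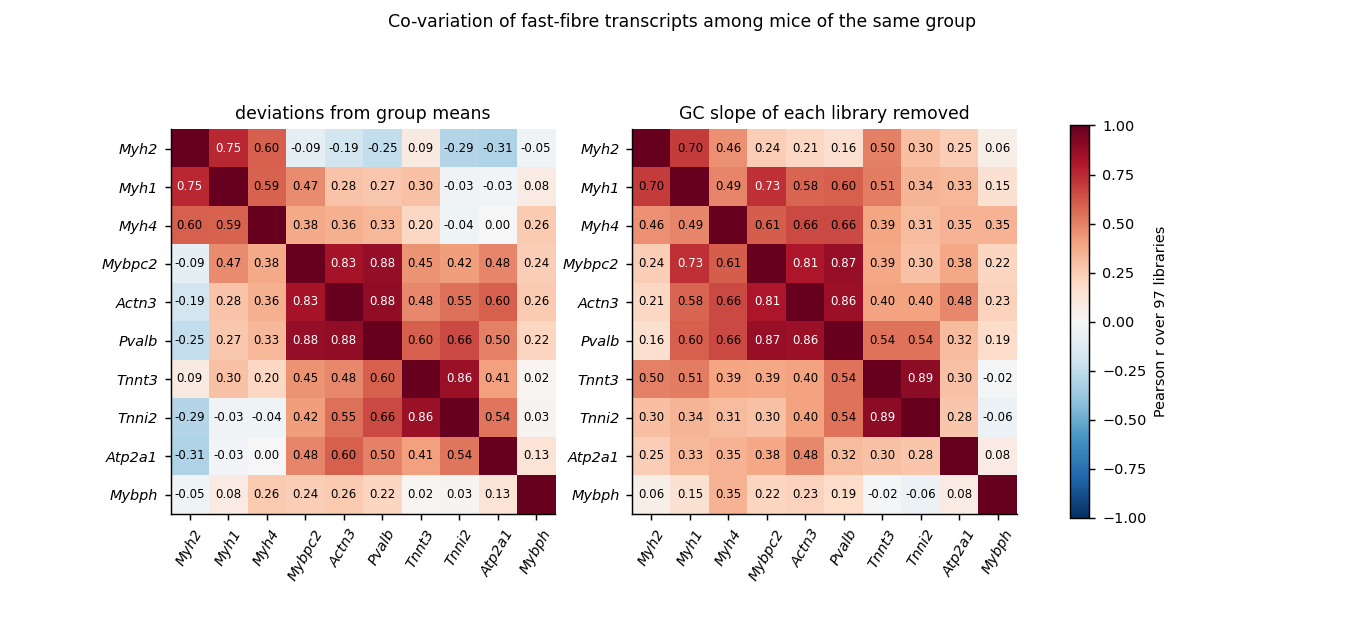
Pearson correlation of deviations from the group mean of log2 CPM between each pair of the 10 genes over 97 soleus libraries (colour and printed value), as measured (left) and with the GC slope of each library removed (right). Actn3, Pvalb and Mybpc2 stay above 0.8 in both panels, and Mybph stays at or under 0.35 with all others.

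The mean of the 10 genes' deviations, each divided by its SD, was then compared with the other tested genes that have a plain symbol, 13113 in all, over the 97 libraries. The 10 most alike by Pearson's r were Cib2 (0.72), Slc16a3 (0.72), Myoz1 (0.71), Fam57b (0.68), Tpm1 (0.66), Eno3 (0.66), Tspan8 (0.65), Tnnc2 (0.63), Myl1 (0.61) and Pygm (0.59), and the median over all genes was -0.06. All 10 were also the 10 most alike by Spearman's rho. Slc16a3 encodes the lactate exporter MCT4, Eno3 muscle enolase, Tpm1 a tropomyosin, Tnnc2 fast troponin C and Pygm muscle glycogen phosphorylase. The genes were ranked on these libraries, so their r values are a description.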

How the data were processed

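Poly(A) RNA of soleus had been sequenced from stranded TruSeq libraries, per the labels' protocols. The submitters' processing notes list Trimmomatic 0.39, HISAT2 2.2.1, SAMtools, DESeq and DESeq2 as tools and GRCm39 as build. Which program counted the reads, with which strand setting and gene models, is not given in the sources used here, so values of overlapping genes and of near-identical copies are uncertain. All tests used the deposited whole-number counts per Ensembl gene, which are not normalized. FPKM values were computed and deposited by the authors. They served only for comparing levels between genes, for the myosin shares and for the fast to slow ratios. A GENCODE M21 table (GRCm38) gave symbols to 52073 of 56980 identifiers, and RefSeq promoters (GRCm38.p6) were found for 7 of the 10 genes.

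All 97 soleus libraries (4169650 to 22050846 reads) entered 1 fit in edgeR 4.0.16 (R 4.3.3, limma 3.58.1) with a mean for each group and TMM factors. The filterByExpr filter, at a minimum count of 10 and a minimum total of 15, kept 17520 genes. Quasi-likelihood F tests were made for 26 contrasts, p-values were adjusted by Benjamini-Hochberg over all genes within each, and calls were made under 0.05. A standard error is |log2 fold change| over the square root of its F. Fold changes are TH minus B6, high-fat minus chow, male minus female and 20 minus 5 weeks on the log2 scale, each averaged over whatever is not named. Replicate numbers did not pair the mice: over 706 same-numbered pairs of libraries the mean correlation of deviations was 0.0053, and in 1 of 120 pairs of groups every correlation was over 0.1. Scripts were first tested on simulated data.

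The 10 genes, the gene lists and the tests were chosen with earlier results of these data known. Each of the 10 is named, and the most similar genes are the 10 highest by Pearson's r. Examples from lists were drawn from the 3 called genes with the lowest p in each overall contrast, beside the slow or general counterparts. Some genes that went against the rest of their list are also named. Alternatives tried were RLE and upper quartile factors, no low-count filter, DESeq2 1.42.0, fitting the compared groups alone, blocking on replicate number, and leaving out single mice. The GC slope as a covariate and 3 of the left-out mice were added after seeing the data. No soleus library was a copy of another. Other computing and drawing was done in Python 3.11.15 (pandas 2.3.3, numpy 2.4.6, matplotlib 3.10.9). The p-values weigh each difference against the spread among mice of the same group, which includes differences between libraries such as the GC slope.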

Additional observations from a re-analysis of the deposited data

Results flagged for a closer look

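In 13 of the 160 sets formed by 1 gene and 1 group, 1 mouse stood outside the rest by a gap too wide for its group size. Chance alone gives about 1 in 20 such sets. In B6 females on the high-fat diet at 5 weeks, Myh4 reached 7736 CPM in mouse 2, against 378 to 926 CPM in the other 5, and the Myh4 share of the myosins was 22.9% in that mouse, the highest of all libraries. In the same group, mouse 5 had 10766 CPM of Tnnt3 (others 4801 to 6276 CPM) and 5067 CPM of Tnni2 (others 1957 to 2773 CPM).

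In TH males at 20 weeks, Myh4 was high in mouse 1 on the high-fat diet at 510.1 CPM (others 175 to 239.9 CPM) and low in mouse 1 on chow at 238.1 CPM (others 398 to 506 CPM). At 5 weeks, TH male 2 on chow was low in both Actn3, at 45.7 CPM (others 189 to 289 CPM), and Mybpc2, at 11.2 CPM (others 100.2 to 183 CPM). TH male 4 on the high-fat diet had 165 CPM of Mybpc2 (others 332 to 461 CPM).

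In TH females on the high-fat diet at 20 weeks, mouse 1 had 511 CPM of Actn3 (others 65.7 to 109 CPM). In TH females on chow at that age, mouse 6 had 119.8 CPM of Mybph (others 3.77 to 8.62 CPM). In B6 mice, female 5 on chow at 5 weeks had 332 CPM of Actn3 (others 548 to 707 CPM), female 1 on the high-fat diet at 20 weeks had 6843 CPM of Tnnt3 (others 3625 to 4593 CPM), and male 4 on the high-fat diet at 20 weeks had 1761 CPM of Tnni2 (others 2355.4 to 2614 CPM).

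The effect of one factor differed with another, by the interaction test, in 4 cases. The strain by diet terms were -1.003 for Myh4, 0.34 for Tnni2 and 0.34 for Atp2a1, and the diet by age term was -0.76 for Myh1, all on the log2 scale. Among all genes 36.9% passed for strain by diet and 3.46% for diet by age. None of the 4 passed without the filter on low counts, and with the GC slope as a covariate the 3 strain by diet terms did not (adjusted p = 0.616 to 0.647).

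In data outside the soleus comparisons, the 10 genes summed to 2670.0 CPM in 1 fat library (female B6 mouse 4 on the high-fat diet at 5 weeks), to 470.1 CPM in 1 liver library (female B6 mouse 3 on chow at 20 weeks) and to 74.2 CPM in 1 pancreas library (female TH mouse 4 on the high-fat diet at 20 weeks).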

How the results depend on the processing

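The strain difference of all 10 genes kept its direction and stayed past the threshold under all 15 alternatives run, with log2 values from -1.79 to -1.57 for Myh4, -1.18 to -1.15 for Myh1 and 1.24 to 1.53 for Mybph. Among 260 results (26 contrasts of 10 genes), RLE factors added 3 calls, upper quartile factors added 2 and lost 1, no filter on low counts lost 7, DESeq2 added 9, the replicate block added 7, and the GC slope as a covariate added 20, lost 9 and reversed 2. With only the groups compared, 7 of 160 were added and 4 lost.

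Counts of the 10 genes called changed as follows. With no filter, strain by diet had 0 in place of 3, diet by age 0 in place of 1 and age in B6 on high-fat 1 in place of 3. The unfiltered fit tests 36909 genes. With the replicate number as a block, age in B6 on high-fat had 5 in place of 3, and the labels give the numbers no shared source: same-numbered libraries had a mean correlation of 0.0053 and 24 of 97 were closest to one with their own number. With only the groups compared, diet in B6 at 20 weeks had 1 in place of 0, sex in TH at 5 weeks 0 in place of 1 and sex in B6 at 20 weeks 1 in place of 0. DESeq2 gave 1 in place of 0 for diet in B6 at 5 and at 20 weeks. With the GC slope, strain had 10 in place of 7 on chow and 9 in place of 7 on high-fat at 5 weeks, and 9 in place of 8 on chow and 10 in place of 8 on high-fat at 20 weeks. Sex overall had 6 in place of 3, strain by diet 0 in place of 3, diet in TH at 20 weeks 1 in place of 4, sex in TH at 5 weeks 2 in place of 1, age in B6 on high-fat 5 in place of 3, and diet in B6 at 5 weeks and sex in B6 at 5 and 20 weeks 1 in place of 0. Atp2a1 between sexes was at -0.14 with the GC slope and near 0 without it, and Myh2 for diet in TH at 20 weeks at 0.0531 in place of -0.45. The cause was not tested.

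Single mice were left out only in the 1 group of 5, the TH chow males at 5 weeks, and for 4 further mice. Leaving out each TH chow male at 5 weeks gave 0 to 3 for sex in TH at 5 weeks and 0 to 1 for diet overall. Without B6 high-fat female 5 at 5 weeks, sex in TH at 5 weeks had 3, diet in B6 at 5 weeks 1 and age in B6 on high-fat 1. Without female 2 of that group strain by diet had 1, and without TH chow female 6 at 20 weeks diet in B6 at that age had 1.

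Over all genes, the GC slope gave 5149 in place of 8547 for strain on chow at 20 weeks, 4803 in place of 2902 on chow at 5 weeks, 1524 in place of 6373 for sex in TH at 20 weeks, 6976 in place of 4222 for age in B6 on high-fat and 1923 in place of 566 for strain by age. Without a filter, diet overall had 604 in place of 1218 and diet by age 170 in place of 606. At a lowest count of 8 reads, Mybph is the one of the 10 most limited by depth.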

Other observations

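Outside soleus the 10 genes had median summed levels of 7.78 CPM in fat, 0.239 CPM in liver and 0.266 CPM in pancreas, against 23736 CPM in soleus. At most 3 counts in all were found in 55 of 96 liver and 84 of 110 pancreas libraries. Single libraries stood far higher: 7 of 96 in fat, 9 of 96 in liver and 5 of 110 in pancreas were above 50 times the median of their tissue, with highest sums of 2670.0 CPM in fat, 470.1 CPM in liver and 74.2 CPM in pancreas.

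Between 20 and 5 weeks 59.3% of all genes differed, 34.1% lower and 25.3% higher at 20 weeks. Further contractile genes of the soleus were counted in the same contrast. Of 9 further fast contractile genes, 7 were lower and 1 was higher at 20 weeks, with Myl1 at -0.68 ± 0.04 and Mylpf at -0.58 ± 0.06 on the log2 scale. Of 14 slow contractile genes 5 were lower and 2 higher. Myl6b, a light chain of slow and developing muscle, was at -1.71 ± 0.08 (adjusted p = 4.31e-34). All 5 of 10 glycolysis genes that passed were higher at 20 weeks. Between the sexes, 5 of the 9 further fast contractile genes and 8 of 10 glycolysis genes were higher in males, with Myoz1 at 0.52 ± 0.07, and 1 glycolysis gene was lower. Of all genes, 22.8% were higher and 21.2% lower in males.

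By the mean of the 10 genes' scaled deviations from their group means, the 2 ends of the 97 libraries were B6 females at 20 weeks. The lowest, on chow at -1.585, was below its group mean in all 10 genes. The highest, on the high-fat diet at 1.36, was above it in 9. Other libraries were also below, or above, their group means in all 10 genes.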
